A study of Mus musculus with 30 samples.

Results

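Transplantation of wild type marrow was examined in sorted LSK cells, the Lin- Sca1+ Kit+ fraction of mouse bone marrow that holds stem cells and multipotent progenitors. The libraries were chosen by their labels alone: 3 of transplanted wild type (WT) marrow and 3 of untransplanted WT marrow, 6 of the 12 LSK libraries and of the 30 RNA sequencing libraries of the series. Transplanted WT cells came from C57BL/6 marrow that carried a luciferase shRNA, a control hairpin with no mouse target, and had been placed in WT recipients about 2 months earlier. Untransplanted WT cells came from C57BL/6 marrow with no shRNA and no transplantation. Neither group had received the mutagen ENU, neither was haploinsufficient for any gene, and all 6 libraries were taken before any myeloid disease. Passage through a recipient and exposure to the shRNA vector go together in the transplanted group and cannot be told apart. The age and sex of the mice, the conditioning of the recipients, the share of donor cells after transplantation and the pooling of animals are not stated in the labels. The remaining LSK groups were EAP, marrow with a Trp53 shRNA and haploinsufficiency of Egr1 and of Apc, placed in WT recipients, and EAP with ENU, in which donor and recipient had also received ENU. The series as a whole was collected to follow therapy-related myeloid neoplasms in these mice.

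After transplantation, stem cells leave quiescence, divide to refill the marrow of the host and then return in part to rest. Regenerating and aged stem cells are known for expression of megakaryocyte and platelet genes, among them Selp, and for a weaker lymphoid programme. LSK cells are sorted for the absence of the lineage antigens of mature blood cells, and single progenitors within the gate are known to carry low levels of lineage transcripts before they commit.

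Values are the authors' normalised expression per gene, without a stated unit. Differences are given as log2 changes, transplanted WT minus untransplanted WT, on the log2(value + 1) scale, on which changes of low genes come out too small. The test was limma over 11730 genes with the 12 LSK libraries in 4 groups that shared 1 estimate of the spread, and genes passed at a Benjamini-Hochberg adjusted p under 0.05. The labels do not say whether the 3 libraries of a group came from separate mice, so p-values measure the spread between these libraries, which may be technical.

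The libraries did not divide cleanly by group. The first principal component, with 49.8% of the variance, set transplanted WT 3 (score 51.1), EAP 1 (96.4) and untransplanted WT 2 (67.7) apart from the other 9 libraries, which lay between -38.2 and -10.5. These 3 libraries had larger summed values, 1130054 to 1437201, against 808377 to 1034526 in the others. The relation of a library's deviations from the gene medians to transcript length varied between libraries, with Spearman's rho across genes of -0.049, 0.005 and -0.265 in transplanted WT 1, 2 and 3, and of 0.305, -0.154 and 0.332 in untransplanted WT 1, 2 and 3. The median log2 change was 0.11 in the 3773 genes with the shortest transcripts, 0.03 in the middle 3772 and -0.15 in the 3772 with the longest. Genes listed at 0 numbered 36, 22 and 85 in the transplanted and 41, 280 and 50 in the untransplanted libraries. Untransplanted WT 2 also had the Y-linked Eif2s3y, Uty and Kdm5d listed at 0 and Ddx3y at 0.0415, whereas Eif2s3y stood at 65.0, 56.5 and 90.2 in transplanted WT 1 to 3 and at 88.1 and 96.0 in untransplanted WT 1 and 3. EAP 1 carried a transplant label that went against its other labels. Each result below was therefore also computed with a term for these 3 libraries and without them, both chosen after seeing the data.

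**Figure D1:**
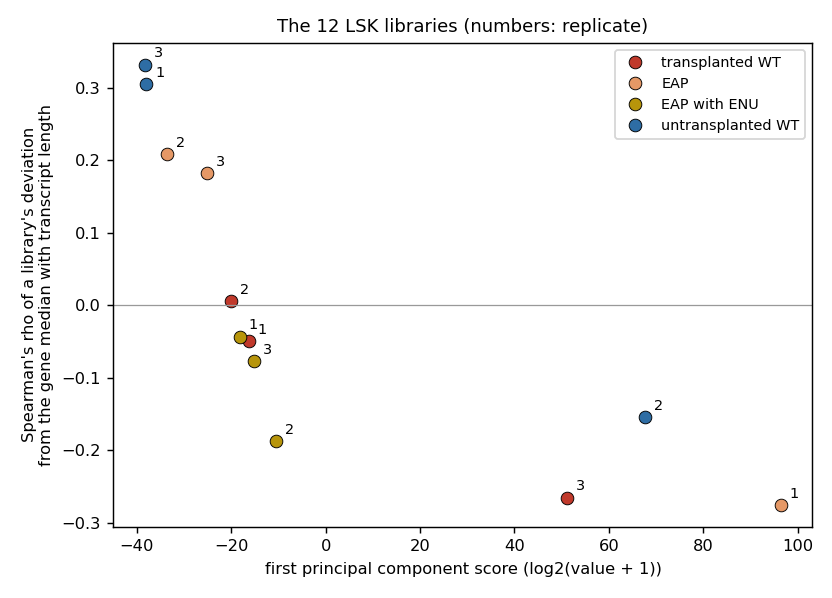
Score of each of the 12 LSK libraries on the first principal component of log2(value + 1) (x axis) against Spearman's rho, across genes, of its deviation from the gene median with transcript length (y axis), coloured by group and numbered by replicate. Transplanted WT 3 at 51.1, EAP 1 at 96.4 and untransplanted WT 2 at 67.7 lie to the right of all other libraries.

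Only 3 genes passed, 0.0256% of the 11730 tested: Selp and Eaf2 were higher after transplantation and Ndn was lower. Selp encodes P-selectin, an adhesion receptor stored in platelet granules and endothelial cells, and lies on chromosome 1 (164115264 to 164150026, mm10). Selp stood at 147, 111 and 135 in transplanted WT libraries 1, 2 and 3, against 17.5, 10.6 and 18.7 in untransplanted WT libraries 1, 2 and 3. Every transplanted library was above every untransplanted one, by a wide margin. The mean was 131 ± 18.4 in transplanted WT and 15.6 ± 4.35 in untransplanted WT (SD, n = 3 each), and the log2 change was 3.02 ± 0.29 (SE, limma adjusted p = 0.00385). The call was lost when the 6 libraries were fitted without the EAP groups (adjusted p = 0.158).

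Eaf2 encodes a partner of the ELL elongation factors of RNA polymerase II and lies on chromosome 16 (36792884 to 36875068). Its values were 27.5, 32.5 and 30.7 in transplanted WT libraries, against 5.0, 5.55 and 6.13 in untransplanted WT libraries. The 3 values of each group lay close together and the groups did not overlap. Eaf2 rose by a log2 change of 2.25 ± 0.26 (SE, limma adjusted p = 0.0130). The call was lost with the replicate number as a block (adjusted p = 0.0977), with only the 6 libraries (0.178) and without any of the 6 libraries other than untransplanted WT 2, where the adjusted p lay between 0.0670 and 0.156 (lowest with transplanted WT 1 left out, highest with transplanted WT 2 left out).

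Ndn encodes necdin, a growth suppressor read from the paternal allele and known to hold stem cells in quiescence, and lies on chromosome 7 (62348277 to 62349928). Ndn was close to the floor in transplanted WT libraries, at 1.24, 0.694 and 1.06, against 15.7, 9.34 and 14.9 in untransplanted WT libraries. It fell by 2.82 ± 0.36 on the log2 scale (SE, limma adjusted p = 0.0273). The call depended on the settings, passing in 8 of 18 alternatives against 11 of 18 for Eaf2 and 17 of 18 for Selp. It was lost with a pseudocount of 0.1 (0.336), after centring by transcript length (0.173), with a stricter filter on low values (0.0809), with the replicate block (0.0933), with the 6 libraries alone (0.18), and without any of the 6 libraries other than untransplanted WT 2 (0.0893 to 0.247).

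Selp and Ndn, the most changed genes in each direction that passed, each have a single promoter in RefSeq (GRCm38.p6), shown from 250 bases before to 50 bases after the start of the gene. Capitals mark the letters GGAAGT, the core read by ETS factors.
Selp promoter, chr1:164115014-164115313, plus strand: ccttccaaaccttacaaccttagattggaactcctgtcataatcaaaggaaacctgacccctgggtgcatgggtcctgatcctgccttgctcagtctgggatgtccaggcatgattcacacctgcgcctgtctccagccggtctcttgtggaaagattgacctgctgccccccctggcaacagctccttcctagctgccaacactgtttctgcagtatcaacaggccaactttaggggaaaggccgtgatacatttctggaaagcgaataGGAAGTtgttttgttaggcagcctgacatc
Ndn promoter, chr7:62348027-62348326, plus strand: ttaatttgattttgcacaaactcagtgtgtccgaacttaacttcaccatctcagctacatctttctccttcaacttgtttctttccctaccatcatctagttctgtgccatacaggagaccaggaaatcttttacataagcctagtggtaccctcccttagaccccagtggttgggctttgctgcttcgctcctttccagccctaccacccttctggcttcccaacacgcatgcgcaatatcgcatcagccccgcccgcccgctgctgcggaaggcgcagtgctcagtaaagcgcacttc
Both strands were searched for AGATAA, the core read by factors of the Gata1 family, for GGAAGT, for TGTGGT, the core read by RUNX factors, and for TGACTCA, the site of AP-1, none of which is contained in another. The Selp window held 1 GGAAGT, at position 271 of 300, and the Ndn window held none of the 4. GGAAGT occurred in 23.8% of 32851 promoters of this length, AGATAA in 11.2%, TGTGGT in 16.8% and TGACTCA in 5.2%. The Ndn window, read from a gene whose promoter is known to be methylated on the maternal allele, held 11 CG dinucleotides, against 4 in the Selp window and a median of 7 over all promoters. RefSeq lists 3 starts for Eaf2, and of their windows only that at chr16:36874777-36875076 (minus strand) held any of the 4 motifs, GGAAGT at 2 places.

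The transplanted EAP groups give a further view of the 3 genes, in cells of another genotype with a Trp53 shRNA, set against the same untransplanted libraries. Selp stood at 110, 225 and 181 in the EAP libraries, and at 160, 164 and 174 in those of EAP with ENU, close to or above the values of transplanted WT. Ndn was at 1.42, 0 and 0.98 in the EAP libraries, and at 1.52, 1.74 and 0.835 in those of EAP with ENU, again near the floor. Eaf2 differed from this pattern, with 7.55, 7.27 and 5.52 in the EAP libraries, and 11.4, 9.72 and 16.6 in those of EAP with ENU, below all 3 transplanted WT libraries.

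**Figure D2:**
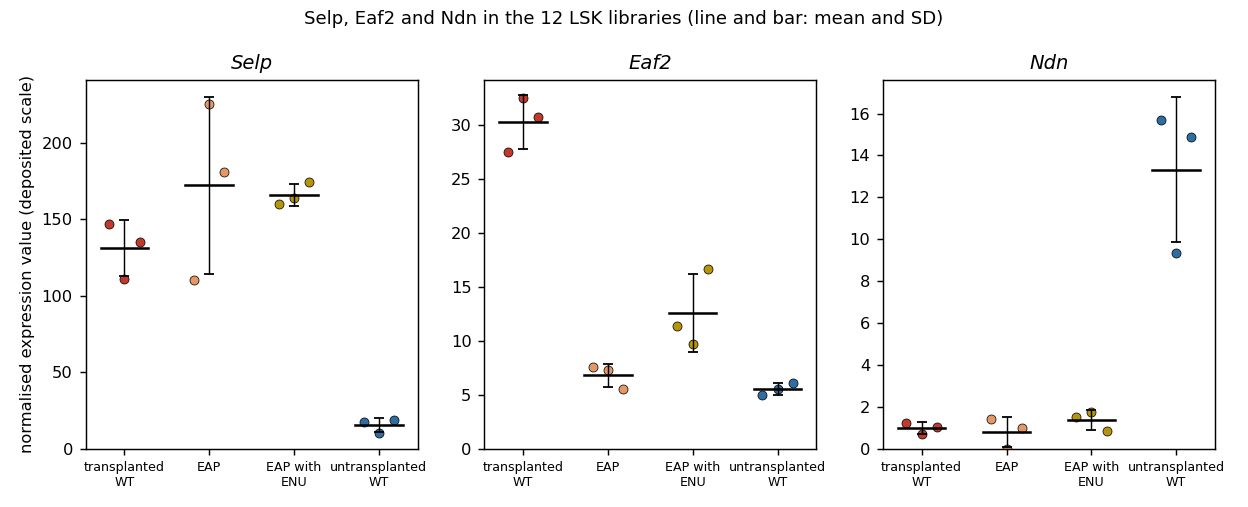
Normalised expression value (y axis, linear) of Selp, Eaf2 and Ndn in each of the 12 LSK libraries, with the mean and SD of the 3 libraries per group. Selp is high and Ndn low in the 9 transplanted libraries of all 3 groups, and Eaf2 is highest in transplanted WT at 27.5 to 32.5.

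Beyond these 3, no gene passed in the comparison as designed, but 370 genes (3.15%) were higher and 485 (4.13%) lower at an unadjusted p under 0.05. With the term for the 3 libraries that stand apart, 275 genes passed, of which 130 (1.11%) were higher and 145 (1.24%) lower in transplanted WT. Without those libraries 498 passed, and 199 genes passed both ways. Sentences below that say a gene passed with the term refer to that fit, and not every gene that passed with it is named.

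By the rule for naming genes, the 10 next in rank on the higher side had adjusted p-values of 0.105 to 0.223, and all passed with the term. All but Ngp also passed without the 3 libraries that stand apart. Emilin2, an extracellular matrix glycoprotein, stood at 41.0, 35.6 and 64.7 in transplanted WT against 12.1, 4.76 and 10.3 in untransplanted WT. Jchain, the joining chain of polymeric antibodies, stood at 200, 699 and 853 in transplanted WT against 7.14, 57.1 and 7.32 in untransplanted WT, a log2 change of 4.97 ± 0.79 (SE). Cdkn2c, the p18 inhibitor of CDK4 and CDK6, stood at 44.1, 37.6 and 52.2 in transplanted libraries against 12.8, 12.1 and 22.1 in untransplanted libraries. In none of these 3 genes did the groups overlap. Here and below, most genes were named for small p-values, which favours separate groups. The share of all genes tested whose groups were separate was not counted, so separation is a description only. The other 7 were Gstm7, a glutathione transferase, Cyb561, an electron carrier in membranes, Fam64a, a protein of mitotic cells, the histone gene Hist1h2bj, the neutrophil granule gene Ngp, the platelet receptor gene Gp5 and the MHC class II gene H2-Eb1, with log2 changes of 0.93 to 2.35. Hist1h2bj has near-identical histone copies between which reads can be split, so its value is uncertain.

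On the lower side the 11 genes next in rank had adjusted p-values of 0.223 to 0.233, and they also passed with the term. All but Serpinh1 passed without the 3 libraries that stand apart as well. Slc35d3, a transporter needed for platelet dense granules, stood at 7.65, 10.8 and 5.01 in transplanted WT against 36.4, 25.7 and 36.5 in untransplanted WT. Serpinf1, which encodes the secreted factor PEDF, stood at 40.5, 46.9 and 88.5 in transplanted libraries against 141, 309 and 140 in untransplanted libraries. The groups were separate in both genes, although untransplanted WT 2 set the upper end for Serpinf1. The gelatinase gene Mmp2, the collagen chaperone gene Serpinh1, the follistatin-like gene Fstl1 and the clotting inhibitor gene Tfpi had log2 changes of -1.29 to -1.73. Rftn2, Abcg3, Rhbdf1 and Lin7c had log2 changes of -1.01 to -2.23.

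Genes were then read in lists by role, and none of the counts that follow is a test of a list. Some genes stand in several lists, among them Irf8, Gata1, Nkg7, Spib and Ly6d, so the counts of different lists are not independent. Most lists had members that were not analysed here, and a member at the floor in 1 group could enter the test through another in which it was high. Apart from Selp and Ndn, no list member passed in the comparison as designed. List counts at an unadjusted p under 0.05 are therefore descriptions, to be read against 3.15% higher and 4.13% lower over all genes, and list medians against a median log2 change near 0 (-0.001) over all genes. In bulk RNA, fewer cells of a type and less RNA per cell cannot be told apart.

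Of 34 stem cell genes, all tested, 7 were lower (20.6%) and none higher at an unadjusted p under 0.05, with a median log2 change of -0.28. Their summed value was 1901 to 2220 in transplanted WT and 2279 to 3322 in untransplanted WT. Besides Ndn, the lower genes included Mmrn1, a multimerin of platelet granules and stem cells, at 15.3, 13.4 and 34.6 in transplanted WT against 58.8, 57.2 and 65.7 in untransplanted WT. Gprasp2, a receptor-sorting protein with a known role in stem cells, stood at 5.99, 5.08 and 4.58 in transplanted libraries against 10.2, 9.33 and 11.5 in untransplanted libraries, and the groups were again separate. Mllt3, a regulator of stem cell maintenance, stood at 8.91, 9.24 and 5.89 in transplanted WT against 14.4, 10.5 and 15.1 in untransplanted WT. Procr, Fgd5 and Prdm16 made up the 7, and their names were picked after their values were seen. Procr, the endothelial protein C receptor used to mark stem cells, was at 31.7, 35.1 and 31.6 in transplanted WT against 36.9, 80.1 and 46.8 in untransplanted WT, with a log2 change of -0.65, or of -0.31 without the 3 libraries. With the term, Ndn and Meis1 passed. Without the 3 libraries Ndn passed and Meis1 did not. Meis1, a homeobox cofactor of stem cells, stood at 169, 169 and 100 in transplanted libraries against 253, 169 and 228 in untransplanted libraries.

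Only 12 of 32 imprinted genes were tested, and 2 were lower (16.7%), Ndn and the growth factor adaptor Grb10. Grb10 stood at 8.20, 5.90 and 4.94 in transplanted WT against 13.8, 14 and 12.4 in untransplanted WT, with a log2 change of -0.99 ± 0.31 (SE, adjusted p = 0.496). Igf2r, a receptor for IGF2, stood at 1.28, 2.19 and 0.608 in transplanted WT against 6.37, 0.771 and 5.78 in untransplanted WT, so that untransplanted WT 2 fell among the transplanted libraries. The list's median log2 change was -0.29, and it moved with single libraries, to -0.08 without transplanted WT 2, -0.48 without transplanted WT 3, -0.46 without untransplanted WT 1 and -0.17 without untransplanted WT 2.

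Megakaryocyte and platelet genes had members higher and members lower in transplanted WT. Of 37 tested genes out of 40 listed, 7 were higher (18.9%) and 3 lower (8.11%) at an unadjusted p under 0.05, with a median log2 change of 0.12, and 6 and 2 passed with the term. The summed value was 2772 to 4561 in transplanted WT and 2892 to 5691 in untransplanted WT, so the list as a whole did not separate the groups. Of the 37 genes, 20 had a positive log2 change, and the median was 0.07, 0.01, 0.27 and 0.06 without transplanted WT 3 and untransplanted WT 1, 2 and 3 in turn. The higher members included Selp, Gp5, Gp1ba, Itga2b and Pf4. Gp5, a subunit of the GPIb-IX-V receptor, was at 35.2, 31.2 and 52.3 in transplanted WT against 11.8, 5.41 and 17.6 in untransplanted WT. Its partner Gp1ba was at 10.1, 6.44 and 10.4 in transplanted libraries against 2.30, 1.42 and 3.80 in untransplanted libraries, and Itga2b, the integrin CD41, was at 134, 124 and 102 in transplanted WT against 54.7, 24.8 and 59.0 in untransplanted WT. Neither pair of groups overlapped. The chemokine Pf4 was at 50.4, 56.5 and 63.1 in transplanted libraries against 19.1, 22.6 and 26.4 in untransplanted libraries, and Gp1ba, Itga2b and Pf4, all picked after their values were seen, passed with the term beside Selp, Gp5 and Gata1. The lower members included Slc35d3 and Mmrn1. Genes raised in aged stem cells, with 32 of 40 tested, had 4 members higher (12.5%), Selp, Itga2b, Mt1 and Gstm2, and 2 lower (6.25%), Ramp2 and Procr. Of the 32, 20 had a positive log2 change, with a median of 0.25 that was 0.12 without transplanted WT 1, 0.09 without transplanted WT 2 and 0.12 without untransplanted WT 2.

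Many granulocyte genes had higher values in transplanted WT, although none passed in the comparison as designed. In the list of neutrophil primary granule and myeloid progenitor genes, 26 of 27 were tested, 24 had a positive log2 change, 8 were higher (30.8%) and none lower at an unadjusted p under 0.05, and the median log2 change was 0.84. That median was 0.44 with library weights and 0.645 without the 3 libraries that stand apart. The summed value of the list was 8862 to 13680 in transplanted WT and 6152 to 6659 in untransplanted WT. Ctsg, the granule protease cathepsin G, stood at 267, 368 and 318 in transplanted WT against 83.4, 35.2 and 92.6 in untransplanted WT. Elane, neutrophil elastase, stood at 196, 581 and 719 in transplanted libraries against 22.4, 54.9 and 25.2 in untransplanted libraries, a log2 change of 3.75 ± 0.84 (SE, adjusted p = 0.285). Ms4a3, a marker of granulocyte and monocyte progenitors, stood at 31.0, 76.6 and 83.1 in transplanted WT against 5.89, 9.33 and 6.11 in untransplanted WT. Each of the 3 separated the groups and passed with the term, together with Nkg7, a granule protein. Within the transplanted group, library 1 was lowest in all 3. The Fc receptor gene Fcgr3, whose protein marks granulocyte and macrophage progenitors outside the LSK gate, stood at 9.11, 24.3 and 17.7 in transplanted libraries against 3.03e-05, 0.000107 and 1.19 in untransplanted libraries.

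Late neutrophil genes were tested for 14 of 22, with 4 higher (28.6%), none lower and a median log2 change of 1.09. That median was 0.49 with a stricter filter on low values and 1.94 with a pseudocount of 0.1, and Retnlg, Ngp and S100a9 were near or at the floor in untransplanted WT and entered the test through groups in which they were higher. These 4 were low in level, and Ngp, at 4.11, 6.18 and 8.56 in transplanted WT against 0.264, 0 and 1.10 in untransplanted WT, passed with the term. Without the 3 libraries that stand apart Ngp did not pass. The calgranulin S100a9 stood at 5.68, 4.25 and 1.53 in transplanted WT against 0.46, 1.18 and 0 in untransplanted WT, and Retnlg stood at 2.75, 0.925 and 2.84 in transplanted libraries and was listed at 0 in all 3 untransplanted ones. The cathelicidin Camp stood at 6.01, 5.93 and 2.31 in transplanted libraries against 0.541, 2.60 and 0.701 in untransplanted libraries, so that untransplanted WT 2 was above transplanted WT 3.

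Basophil, eosinophil and mast cell genes were tested for 23 of 31, with 8 higher (34.8%) and none lower, a median log2 change of 0.96 and 5 genes that passed with the term. The summed value was 681.5 to 1508 in transplanted WT and 506 to 879 in untransplanted WT. Mcpt8, a basophil protease, stood at 38.2, 92.0 and 120 in transplanted WT against 12.5, 16.9 and 10.7 in untransplanted WT. Fcer1a, the alpha chain of the IgE receptor, stood at 9.14, 13 and 23.1 in transplanted libraries against 0.0761, 1.17 and 0 in untransplanted libraries. Prg2, a toxic protein of eosinophil granules, stood at 6.15, 101 and 122 in transplanted WT against 6.41, 2.90 and 1.27 in untransplanted WT, so transplanted WT 1 lay among the untransplanted libraries for this gene and apart from them for Mcpt8 and Fcer1a. Hdc, the enzyme that makes histamine, stood at 9.04, 18.8 and 33.6 in transplanted libraries against 4.53, 6.73 and 5.74 in untransplanted libraries. It passed with the term, as did Mcpt8, Fcer1a, Gata1 and the basophil protease Prss34. Without the 3 libraries that stand apart Hdc did not pass, whereas Mcpt8, Fcer1a and Gata1 did.

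Erythroid genes were tested for 23 of 33, with 5 higher (21.7%), none lower and a median log2 change of 0.35, or of 0.22 without transplanted WT 3. Their summed value was 497.6, 669 and 769.9 in transplanted WT 1, 2 and 3 against 525.4 to 539.2 in untransplanted WT. Transplanted WT 1 thus lay below every untransplanted library. The adult alpha globin gene Hba-a1 stood at 15.9, 36.5 and 31.0 in transplanted WT against 8.30, 4.77 and 6.41 in untransplanted WT. The beta globin gene Hbb-bs stood at 11.7, 20.8 and 16.2 in transplanted WT against 7.90, 6.46 and 2.48 in untransplanted WT. The globin genes have near-identical copies, and their values are uncertain in that respect. Gata1, the master factor of red cells, megakaryocytes and mast cells, stood at 47.8, 38.8 and 59.6 in transplanted libraries against 21.4, 35.3 and 16.4 in untransplanted libraries, and of this list it alone passed with the term. Monocyte and macrophage genes, with 22 of 30 tested, had 2 members higher (9.09%), C1qb and Ccr2, and none lower. Cd68, not among the 2, alone of this list passed with the term.

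**Figure D3:**
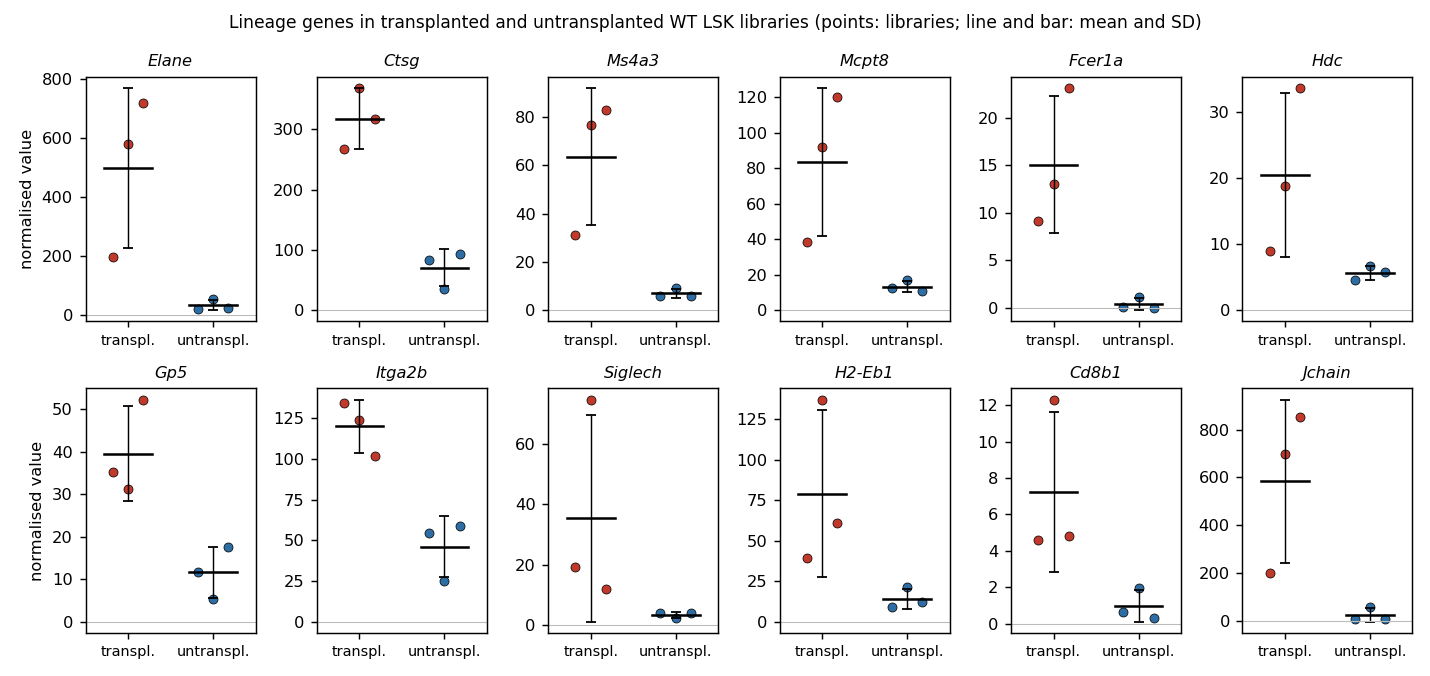
Normalised expression value (y axes, linear, a scale per gene) of 12 lineage genes in the 3 transplanted and 3 untransplanted WT libraries, with mean and SD. The transplanted libraries lie above the untransplanted ones in each panel, and spread widely for Elane (196 to 719), Jchain (200 to 853) and Siglech (12 to 74.8).

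Several genes of mature lymphoid and antigen-presenting cells were also at higher values in transplanted WT. T and NK cell genes were tested for 27 of 35, with 9 higher (33.3%), none lower and a median log2 change of 0.57. The median was 0.17 with a stricter filter on low values, 0.18 with library weights, 0.28 without transplanted WT 2 and 0.34 without untransplanted WT 2, and members near the floor in untransplanted WT, such as Cd3e, entered the test through groups in which they were higher. The T cell receptor subunit Cd3e stood at 3.89, 5.51 and 1.07 in transplanted WT against 0.268, 0 and 0 in untransplanted WT, and Cd8b1, a chain of the CD8 co-receptor, at 4.59, 12.3 and 4.82 in transplanted WT against 0.63, 1.96 and 0.348 in untransplanted WT. The 2 genes passed with the term, and both were highest in transplanted WT 2. Dendritic cell genes were tested for 20 of 21, with 9 higher (45%), none lower and a median log2 change of 0.78, or of 0.56 without transplanted WT 2. Their summed value was 1145, 1745 and 1113 in transplanted WT 1, 2 and 3. It was 1345, 794 and 1320 in untransplanted WT 1, 2 and 3, so the groups overlapped. Siglech, a marker of plasmacytoid dendritic cells, stood at 19.4, 74.8 and 12 in transplanted libraries against 3.97, 2.16 and 3.87 in untransplanted libraries.

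MHC class II genes were tested for 11 of 12, with 5 higher (45.5%), 1 lower (9.09%) and a median log2 change of 0.49, or of 0.87 without untransplanted WT 2. H2-Eb1 stood at 39.1, 137 and 60.9 in transplanted WT against 9.18, 21.1 and 12.4 in untransplanted WT. Cd74, the invariant chain, stood at 422, 1510 and 1490 in transplanted WT against 82.5, 761 and 92.4 in untransplanted WT, and H2-Ab1 at 327, 741 and 1240 in transplanted libraries against 73.5, 583 and 75.5 in untransplanted libraries. For Cd74 and H2-Ab1, untransplanted WT 2 lay above transplanted WT 1, and without the 3 libraries their log2 changes were 3.18 and 2.71, and with them 2.44 and 2.17. H2-Ob, which restrains peptide loading, was lower at 87.8, 110 and 100 in transplanted WT against 174, 144 and 170 in untransplanted WT. B and plasma cell genes, tested for 22 of 31, had 5 members higher (22.7%) and 2 lower (9.09%). Jchain led that list, whereas the plasma cell marker Sdc1 stood at 17.8, 37.8 and 19.1 in transplanted WT against 71.6, 37.5 and 66.3 in untransplanted WT.

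The lymphoid priming genes, which progenitors switch on before they commit to B or T cells, had a median log2 change of -0.46, and 20 of the 24 tested (28 listed) had a negative or no change. At an unadjusted p under 0.05, however, 1 was lower (4.17%) and 1 higher (4.17%), close to the shares over all genes. The median was -0.30 without transplanted WT 3 and -0.30 without untransplanted WT 1. Satb1, a chromatin organiser of lymphoid progenitors, stood at 39.8, 44.4 and 56.5 in transplanted WT against 108, 49.0 and 101 in untransplanted WT, at an unadjusted p under 0.05. The recombinase gene Rag2 stood at 6.06, 13.9 and 9.23 in transplanted libraries against 26.0, 9.09 and 26.6 in untransplanted libraries. For each, untransplanted WT 2 fell within the transplanted range, and the log2 changes were -1.29 and -1.41 without the 3 libraries, and -0.79 and -0.94 with them. Irf8, also a factor of dendritic cells and monocytes, was the member higher, at 184, 357 and 227 in transplanted WT against 169, 119 and 175 in untransplanted WT. None of the lymphoid priming genes passed with the term.

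**Figure D4:**
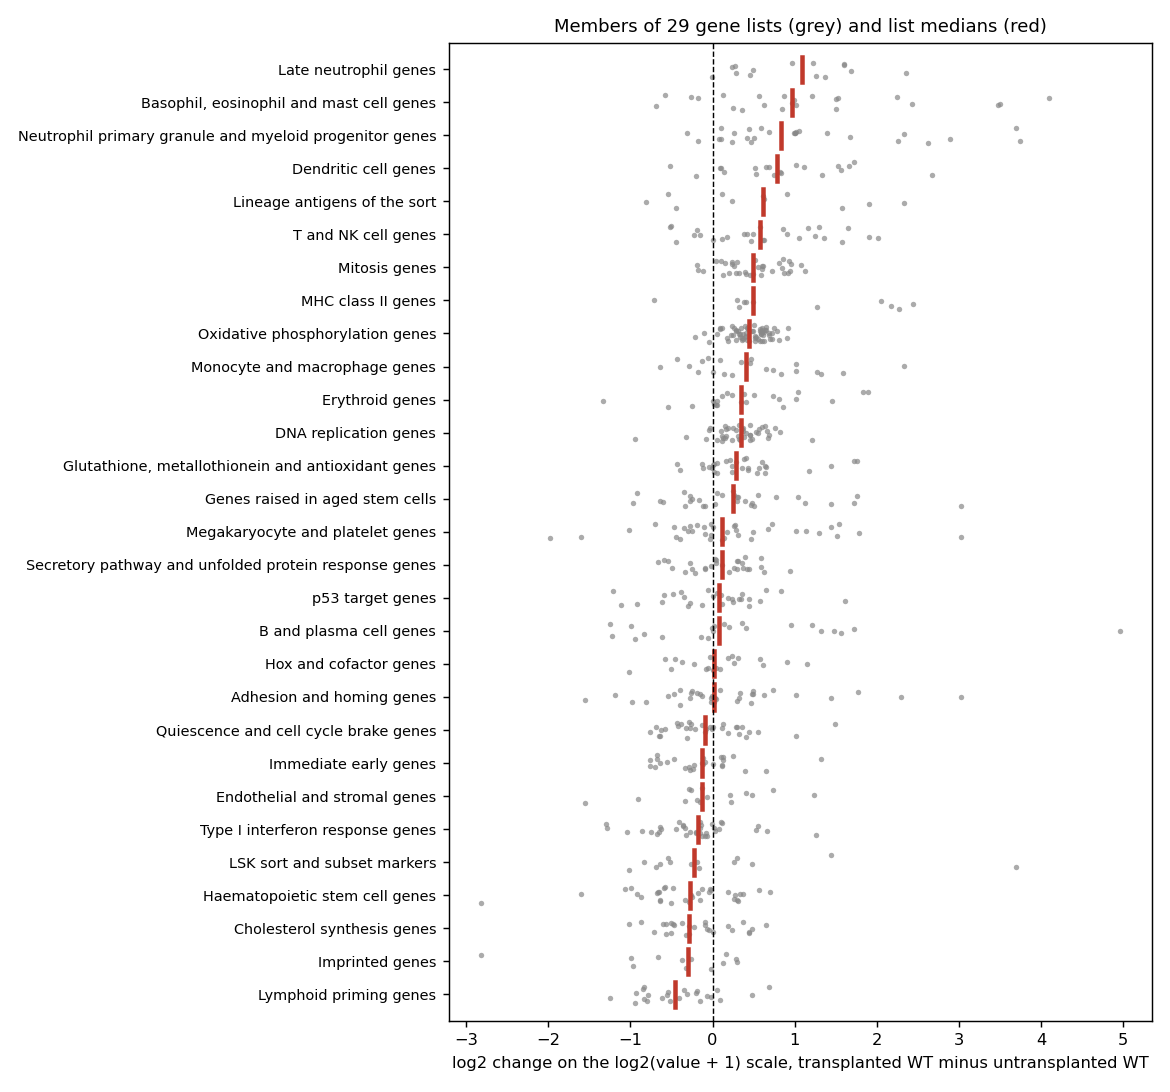
Log2 change, transplanted WT minus untransplanted WT, on the log2(value + 1) scale (x axis) of each tested member of 29 gene lists (grey points), with the list median (red bar), ordered by median. Medians run from 1.09 for late neutrophil genes to -0.46 for lymphoid priming genes, and the oxidative phosphorylation genes cluster around 0.45. With a stricter filter on low values, the median of late neutrophil genes is 0.49, below the 1.02 of basophil, eosinophil and mast cell genes.

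Most mitosis genes had higher values in transplanted WT, although none passed in the comparison as designed. Of 35 tested genes out of 37 listed, 32 had a positive log2 change, 10 were higher (28.6%) and none lower at an unadjusted p under 0.05, and 10 passed with the term. Their median log2 change was 0.49, and their summed value was 3800 to 5680 in transplanted WT and 2537 to 3288 in untransplanted WT. Ube2c, the ubiquitin-conjugating enzyme of the anaphase-promoting complex, stood at 256, 257 and 253 in transplanted libraries against 124, 121 and 116 in untransplanted libraries, a log2 change of 1.08 ± 0.23 (SE, adjusted p = 0.233). Cdca3, a cell division cofactor, stood at 119, 120 and 121 in transplanted WT against 69.1, 58.6 and 70.8 in untransplanted WT, and Fam64a at 128, 126 and 129 in transplanted libraries against 72.3, 56.4 and 72.1 in untransplanted libraries. The kinase gene Aurkb stood at 189, 197 and 285 in transplanted WT against 115, 115 and 109 in untransplanted WT. In these 4 genes the groups did not overlap, and the values of Ube2c, Cdca3 and Fam64a lay close together in the transplanted libraries. By contrast Mki67 and Top2a, genes of cycling cells picked after their values were seen, had log2 changes of 0.20 and 0.10, and Mki67 stood at 46.1, 51.6 and 30.0 in transplanted libraries against 45.1, 24.4 and 42.4 in untransplanted libraries.

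DNA replication genes were tested for all 44, of which 39 had a positive log2 change and 3 were higher (6.82%) at an unadjusted p under 0.05, with a median of 0.34, or of 0.16 without transplanted WT 3. Their summed value was 9027, 9000 and 14310 in transplanted WT 1, 2 and 3 against 7255, 10700 and 7010 in untransplanted WT 1, 2 and 3, so that untransplanted WT 2 lay above 2 of the transplanted libraries. Pold1, the catalytic subunit of DNA polymerase delta, stood at 288, 253 and 248 in transplanted WT against 145, 72.4 and 136 in untransplanted WT, and Cdt1, a licensing factor, at 151, 142 and 136 in transplanted WT against 110, 83.6 and 97.0 in untransplanted WT. In each the groups were separate. Of 33 quiescence and cell cycle brake genes tested (34 listed), 2 were higher (6.06%) and 1 lower (3.03%), shares not far from those over all genes. These were Cdkn2c and the cyclin Ccnd1 on the higher side and the cyclin Ccnd2 on the lower side. Only Cdkn2c of these is a brake, since the D cyclins, also in this list, promote division. Ccnd1 stood at 7.63, 11.7 and 11.4 in transplanted libraries against 5.35, 4.01 and 4.23 in untransplanted libraries. Ccnd2 stood at 128, 122 and 101 in transplanted WT against 147, 184 and 144 in untransplanted WT.

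**Figure D5:**
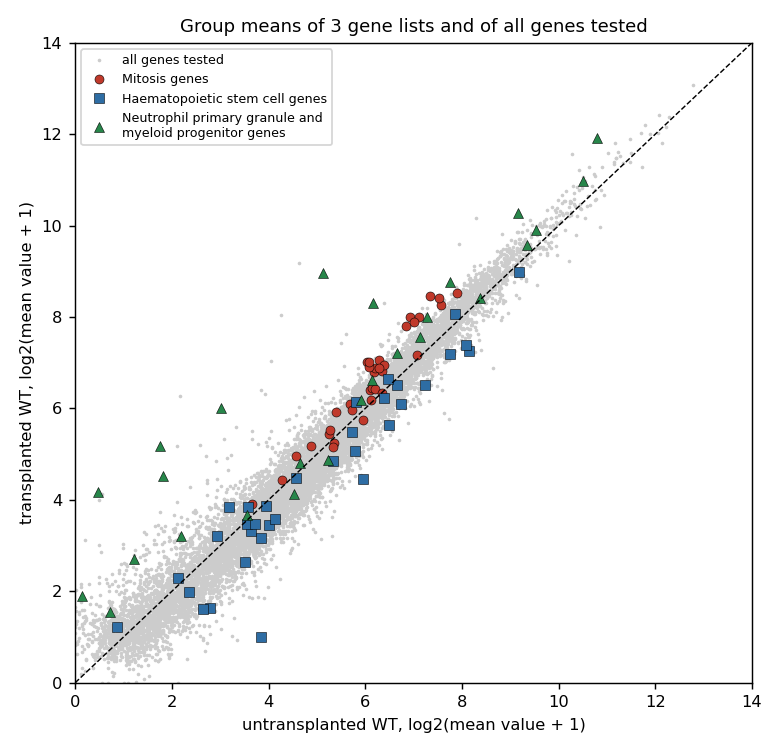
Group means as log2(mean value + 1), transplanted WT (y axis) against untransplanted WT (x axis), for all 11730 genes tested (grey), 35 mitosis genes, 34 stem cell genes and 26 neutrophil primary granule and myeloid progenitor genes, with the line of equal means dashed. Mitosis and granule genes lie mostly above the line, and Ndn is the stem cell gene farthest below it.

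Genes of oxidative phosphorylation had small log2 changes, nearly all positive. All 69 were tested, 66 had a positive log2 change with a median of 0.45, yet none reached an unadjusted p under 0.05 in the comparison as designed. With the term, Uqcrc1 alone of the 69 passed. Their summed value was 24150, 24690 and 40810 in transplanted WT 1, 2 and 3 against 17850, 30500 and 17940 in untransplanted WT 1, 2 and 3, and the groups overlapped. The median was 0.24 without transplanted WT 3 and 0.77 without untransplanted WT 2. Atp5e, a subunit of ATP synthase, stood at 294, 304 and 397 in transplanted WT against 174, 220 and 193 in untransplanted WT, and for this gene the groups were separate. After centring by transcript length the list's median was 0.36, and the part of transcript length in it was not tested further. Cholesterol synthesis genes had 3 of 27 tested members lower (11.1%) and none higher, with a median of -0.28 that was -0.15 without untransplanted WT 2, -0.12 after centring by transcript length and -0.11 with library weights. Hmgcs1, a synthase early in the pathway, stood at 31.2, 34.7 and 26.3 in transplanted WT against 49.4, 46.9 and 45.0 in untransplanted WT. Glutathione, metallothionein and antioxidant genes had 5 of 31 tested members higher (16.1%) and none lower, among them Gstm7 at 5.60, 6.91 and 7.19 in transplanted WT against 1.77, 1.62 and 1.96 in untransplanted WT.

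Stress and signalling lists had few members at an unadjusted p under 0.05. Type I interferon response genes had 2 of 36 tested members higher (5.56%), Ifi27 and Phf11d, and 3 lower (8.33%), Ifit1, Ifit3 and Ifi44. Of these Ifi44 alone passed with the term. Ifi27 stood at 509, 465 and 400 in transplanted WT against 278, 283 and 300 in untransplanted WT, and Ifit3 at 11.9, 9.11 and 8.39 in transplanted libraries against 16.4, 22.3 and 25.2 in untransplanted libraries. The p53 target genes had 1 of 28 higher (3.57%), Plk3, and 1 lower (3.57%), Phlda3. Of the 29 secretory pathway genes tested, Ero1l alone reached an unadjusted p under 0.05, on the lower side, and none of the 27 immediate early genes did. Among 20 Hox and cofactor genes tested, Hoxb2 was higher, at 16.3, 14.2 and 26.5 in transplanted WT against 6.16, 16.1 and 4.39 in untransplanted WT. Adhesion and homing genes, apart from Selp, Emilin2, Itga2b and Mmp2 above, had Jam3 lower, at 3.41, 3.71 and 0.931 in transplanted libraries against 8.06, 5.86 and 6.61 in untransplanted libraries, with a list median of 0.01 that changed sign between settings.

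The genes that define the sort were present in all 6 libraries. Kit stood at 251, 308 and 170 in transplanted WT against 598, 158 and 584 in untransplanted WT, so untransplanted WT 2 lay below every transplanted library and the other 2 far above them. Its log2 change was -0.69 ± 0.62 (SE, adjusted p = 0.919), and without the 3 libraries it was -1.08 (adjusted p = 0.0239). Flt3, the receptor of multipotent progenitors, showed the same arrangement at 365, 446 and 260 in transplanted WT against 727, 240 and 706 in untransplanted WT. Ly6a, which encodes Sca1, overlapped between groups at 161, 190 and 107 in transplanted libraries against 186, 134 and 199 in untransplanted libraries, and so did Cd34, Slamf1 and Cd48. Trp53 and Apc, altered in the EAP groups and in neither WT group, overlapped as well, with Trp53 at 308, 370 and 247 in transplanted WT against 349, 213 and 339 in untransplanted WT. Of 13 lineage antigens of the kind used to exclude mature cells, 11 were tested, with a summed value of 133 to 283 in transplanted WT and 153 to 241 in untransplanted WT. Cd3e and Cd3g were higher (18.2%) and none was lower. Of 31 endothelial and stromal genes, 15 were tested, with a summed value of 721 to 807 in transplanted WT and 813 to 890 in untransplanted WT. Their mean log2(value + 1) overlapped, at 3.47 to 4.055 in transplanted WT and 3.344 to 4.247 in untransplanted WT. At an unadjusted p under 0.05, 1 was higher (6.67%) and 2 lower (13.3%). The list median of -0.125 changed sign between settings. The part of mature cells in the granulocyte, T cell and dendritic cell values was not tested.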

How the data were processed

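Whole-transcriptome RNA was measured in sorted mouse LSK cells. Per the labels' protocols, TRIzol was used for extraction and a stranded TruSeq mRNA kit (Illumina) for the libraries. Per the submitters' processing notes, the steps used bcl2fastq, FastQC, TopHat, SAMtools and edgeR and the mm10 build. Tool versions, the counting program, its strand setting and the annotation are not stated there. The deposited values are named CPM, but library sums ran from 808377 to 1437201 and no whole-read steps were found, so they were handled as a signal per gene normalised by the authors in a way that is not stated. The planned test for CPM, on the log scale, was kept. Depth is unknown, and levels are compared between libraries only, not between genes.

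Of 11740 genes, 11730 had a value of at least 1 in at least 3 of the 12 LSK libraries. log2(value + 1) was fitted in R 4.3.3 by lmFit, contrasts.fit and a trended eBayes of limma 3.58.1, with 4 groups of 3 libraries. Adjusted p-values are limma's with Benjamini-Hochberg adjustment over all genes tested. The procedure was run on simulated data with independent noise smaller than the spread observed here and with no libraries that stand apart. That run therefore does not show how reliable the calls are at the noise of these data. Tables and figures were made with Python 3.11.15, pandas 2.3.3 and matplotlib 3.10.9. Transcript lengths (11327 genes matched) came from GENCODE on mm10, gene coordinates from RefSeq, and promoters from RefSeq GRCm38.p6.

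The comparison, the gene lists and the rules were chosen with earlier results of these data known. Genes are named if they passed, if among the 12 smallest unadjusted p-values per direction with the higher group's mean at 5 or more (genes without a standard name passed over), or if among up to 4 members of a list with the smallest p, and Kit, Ly6a, Cd34, Flt3, Slamf1, Cd48, Trp53, Egr1 and Apc always. Some genes that the rule selects are left out of the text. Other names there were picked after their values were seen. Bone marrow and stromal libraries were not used here. Alternatives were a pseudocount of 0.1, no filter, a minimum of 5, median-of-ratios scaling, a replicate block, each library left out, the 6 libraries alone, EAP 1 left out, library weights and robust empirical Bayes. A term for the 3 libraries that stand apart, a fit without them and centring in 20 bins of transcript length were chosen after seeing the data.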

Additional observations from a re-analysis of the deposited data

How the results depend on the processing

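Of the 3 genes that passed, 1 passed with the replicate block and 0 with the 6 libraries alone, where limma still gave 402 higher and 465 lower genes at an unadjusted p under 0.05. Library weights gave 4730 passing genes, with 2720 higher and 3044 lower at an unadjusted p under 0.05, although the iteration for the weights did not converge. The term for the 3 libraries that stand apart gave 275 passing, with 1207 and 1307, and leaving them out gave 498, with 1238 and 1674. Without EAP 1, 564 genes were higher. Leaving out 1 of the 6 libraries gave 1 to 5 passing genes, 238 to 485 higher and 286 to 900 lower. The highest of these counts came without untransplanted WT 2 (5, 485 and 900). A single gene passed without transplanted WT 2, transplanted WT 3, untransplanted WT 1 or untransplanted WT 3, the lowest higher count came without transplanted WT 2 and the lowest lower count without transplanted WT 3. The cause of these shifts was not tested.

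Deviations from the group means correlated at 0.309, -0.604 and -0.616 for libraries of the same number 1, 2 and 3. Transplanted WT 3 and untransplanted WT 2, which both stand apart, correlated at 0.706. Such libraries weigh on all these values, so the correlations cannot decide whether the replicate numbers pair the libraries. With the block Selp alone passed (limma adjusted p = 0.0484). Some log2 changes that passed no test in the designed comparison changed sign. Without untransplanted WT 2, with library weights and without the 3 libraries, they were -0.41, -0.45 and -0.59 for Eif2s3y, -0.47, -0.63 and -0.59 for Ddx3y, -0.60, -0.50 and -0.41 for Uty, and -0.96, -0.72 and -0.84 for Kdm5d. Trp53 was at -0.176, -0.10 and -0.026 in the same 3 settings and at -0.09 without transplanted WT 2. Klf6 was at 0.22 with library weights and 0.11 without the 3 libraries, Ly6a at 0.042 without transplanted WT 3, and with library weights Cd48 was at -0.032 and Egr1 at 0.032. With 1 library left out, the highest log2 changes were 2.90 for Eif2s3y and 1.63 for Uty (without untransplanted WT 3), 2.41 for Ddx3y and 1.09 for Kdm5d (without untransplanted WT 1) and 0.205 for Trp53 (without transplanted WT 3), and the lowest for Ly6a was -0.37 (without transplanted WT 2). Of 540 list medians recomputed, 34 moved beyond their spread and 506 did not. The replicate block, robust empirical Bayes, the fit without EAP 1 and the term cannot change a log2 change in this design. Their medians are the same by construction and say nothing on stability. The lists of mitosis, stem cell, lymphoid priming, granulocyte, basophil, dendritic cell and MHC class II genes kept their median's sign in all 18 settings. The median changed sign in at least 1 setting for lineage antigens (0.62 as designed, -0.54 with a stricter filter on low values and -0.03 with library weights) and for the lists of B and plasma cell, endothelial and stromal, adhesion and homing, quiescence, p53 target, immediate early, secretory pathway, Hox and sex-linked genes. Low values and 3 libraries per group limit what can be seen, and with no counts no interval for depth can be given.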
